A study of Mus musculus with 8 samples.

Results

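DRIP-seq peaks that lay away from genes and outside annotated repeats were examined in mouse embryonic fibroblasts (MEFs) with or without the helicase RTEL1 and with or without induced RNaseH1. A peak was included when it lay more than 10 kb from every gene body of the GENCODE mouse release M21, when at most 50% of its bases were soft-masked as repeats in GRCm38 (mm10), and when it was outside the first 8 Mb and the last 2 Mb of each autosome. This left 12839 of 344010 peaks over the 4 lists, or 3.73%. They are called intergenic unmasked peaks below. The Rtel1 F/F;WT RNH1-GFP MEFs carry floxed Rtel1 alleles and a doxycycline-inducible wild-type RNaseH1 fused to GFP. They were infected with an adenovirus expressing GFP (Ad-GFP, which leaves Rtel1 in place) or Cre and GFP (Ad-Cre, whose recombinase excises floxed alleles), and after 48 h were left as mock or given doxycycline at 2 µg/ml for 48 h. These groups are called GFP mock and GFP DOX, Cre mock and Cre DOX. All came from the same line, so mock cells carried the uninduced transgene too. The loss of Rtel1 cannot be checked in peak lists. Where 4 values follow each other they are in the order of these names. Genomic DNA was digested with 5 restriction enzymes and precipitated with the S9.6 antibody, and 3 precipitations were pooled into 1 library per group. There was thus no replicate of any group. No test between groups was made, and each difference below compares 1 library with another. A fit with additive effects of virus and doxycycline would have left 1 residual degree of freedom, and it was not run. Intervals are exact Clopper-Pearson 95% intervals over peaks and cover counting error only.

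An R-loop is an RNA:DNA hybrid together with the displaced DNA strand. It forms mostly where RNA is transcribed, RNaseH1 degrades the RNA strand of the hybrid, and RTEL1 unwinds structures such as D-loops and G-quadruplexes (G4s), the folded form of G-rich DNA. Intergenic hybrids are known at enhancers, at unannotated transcripts and at repeats, and reads from a repeat that is missing from the assembly can also be placed at a similar single-copy site.

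Of the 5 loci with an intergenic unmasked peak in every list whose lowest rank by score among the lists was best, 4 are shown first, because they were among the strongest that all 4 libraries shared. The sequence is the whole GFP mock peak, or its central 300 bases, on the plus strand of mm10. Capitals mark a predicted G4 (25-base windows with a G4Hunter score of at least 1.5 on either strand), except at the last locus, where they mark the stretch similar to the 28S ribosomal RNA gene. The second and the third sequence held no predicted G4.
Between Gad2 and Apbb1ip, chr2:22744557-22744856: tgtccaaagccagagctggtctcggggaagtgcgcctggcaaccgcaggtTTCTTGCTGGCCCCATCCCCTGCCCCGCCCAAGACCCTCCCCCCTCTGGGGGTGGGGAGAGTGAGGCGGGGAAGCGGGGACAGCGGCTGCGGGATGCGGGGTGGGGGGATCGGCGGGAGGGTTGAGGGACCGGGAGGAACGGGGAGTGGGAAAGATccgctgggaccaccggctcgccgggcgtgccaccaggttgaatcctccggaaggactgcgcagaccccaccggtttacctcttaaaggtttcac
Between Cab39 and Itm2c, chr1:85864505-85864697: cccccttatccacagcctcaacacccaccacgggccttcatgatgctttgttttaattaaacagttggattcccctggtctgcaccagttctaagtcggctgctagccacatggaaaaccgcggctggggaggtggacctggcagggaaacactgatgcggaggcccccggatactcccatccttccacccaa
Between Ddx18 and Dpp10, chr1:122357167-122357466: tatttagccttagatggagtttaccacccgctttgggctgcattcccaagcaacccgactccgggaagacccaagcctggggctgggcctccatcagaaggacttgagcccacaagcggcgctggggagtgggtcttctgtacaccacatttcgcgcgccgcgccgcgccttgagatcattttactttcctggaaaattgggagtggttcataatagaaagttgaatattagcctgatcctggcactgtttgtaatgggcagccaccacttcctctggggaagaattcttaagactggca
Between Gm11084 and Ola1, chr2:73012747-73013046: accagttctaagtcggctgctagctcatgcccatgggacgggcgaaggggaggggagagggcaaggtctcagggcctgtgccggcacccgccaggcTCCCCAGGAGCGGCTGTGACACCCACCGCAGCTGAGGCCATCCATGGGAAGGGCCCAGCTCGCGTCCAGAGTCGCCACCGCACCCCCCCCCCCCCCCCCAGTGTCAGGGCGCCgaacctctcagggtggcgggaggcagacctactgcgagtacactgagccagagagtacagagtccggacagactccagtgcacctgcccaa

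The peak between Gad2 (a glutamate decarboxylase) and Apbb1ip (an adaptor of integrin signalling) lay 10.8 kb from the nearest gene body, the lincRNA 1700092C17Rik. Its score, which is 10 times the −log10 q-value of the peak caller, was 316 in mock and 436 in DOX for GFP cells, and 595 in mock and 985 in DOX for Cre cells. The Cre DOX value was the highest of any intergenic unmasked peak. That peak, chr2:22744914-22745291, starts to the right of the printed stretch and overlaps the right part of the GFP mock peak, chr2:22744226-22745187. Between Cab39 (a scaffold of the LKB1 kinase) and Itm2c the 4 scores were closer, at 325, 342, 290 and 278. The locus between Ddx18, a DEAD-box helicase 789.1 kb away, and Dpp10 lay 105.0 kb from the nearest gene body, the lincRNA Gm28590. Its scores were 350, 332, 394 and 177, with Cre DOX lowest. Between Gm11084 and Ola1, an ATPase, they were 256, 219, 235 and 182. This last locus lay 24.0 kb from Sp3os in GENCODE, but inside the RefSeq lncRNA Gm39850. Scores are not normalised between libraries and the depth of the libraries is unknown.

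The highest score of 3 lists, 635 for GFP mock, 657 for GFP DOX and 699 for Cre mock, belonged to a single locus at chr9:17987730-17987903, 304.2 kb from Chordc1. The nearest gene body to this locus was the processed pseudogene Gm7680, 34.3 kb away. Cre DOX also had a peak there, with a score of 506, but it was wider and 58.8% of its bases were masked, so it fell outside the definition. A GFP DOX peak of 494 lay between Cntnap5b and Cdh20, and its counterparts in the other lists (347, 441 and 218) were more than 60% masked. At 11.8 kb from Batf3, a transcription factor of dendritic cells, the score was 391 in GFP mock and 290 in Cre mock, against 104 in GFP DOX and 35 in Cre DOX. The GFP mock peak overlapped the start of the RefSeq lncRNA Gm46178, and the nearest GENCODE gene body was the lincRNA Gm38161, 11.5 kb away. At this site both mock libraries exceeded both DOX libraries. It was named for its score in GFP mock, so an excess of GFP mock over the other lists was partly set by that choice.

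**Figure D1:**
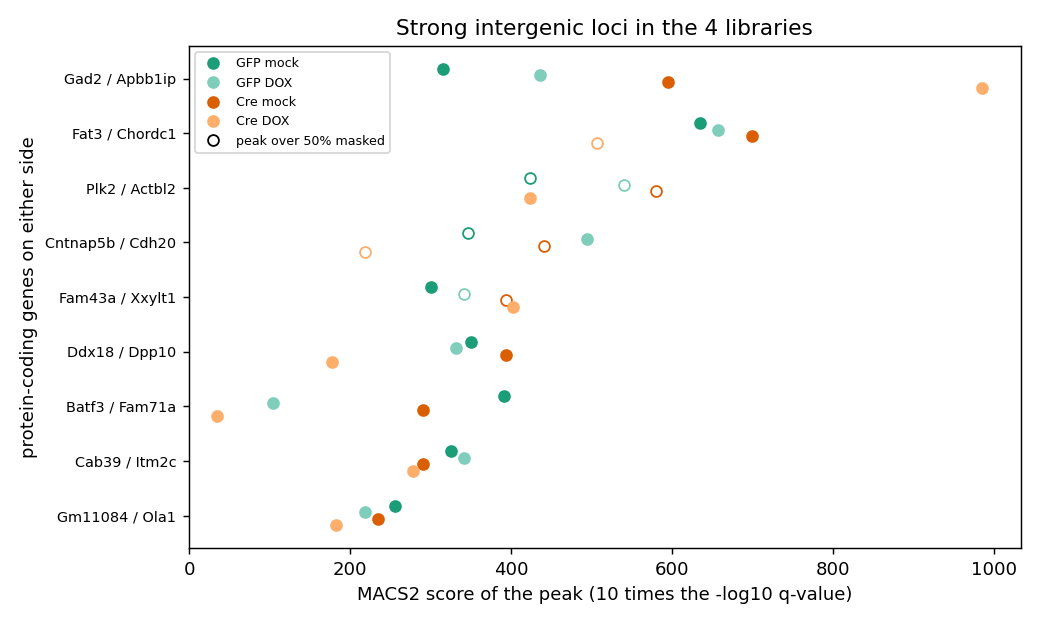
Score of the strongest peak (x axis, 10 times the −log10 q-value) in each of the 4 libraries at strong intergenic loci, named by the protein-coding genes on either side. Open points are peaks over 50% masked. The locus between Gad2 and Apbb1ip ran from 316 in GFP mock to 985 in Cre DOX, and the one near Batf3 from 391 in GFP mock down to 35 in Cre DOX.

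Several of these loci held sequence that also occurs elsewhere. Among 11 of the strongest loci, 4 of 55 pairs shared a run of at least 20 bases. The longest run was 57 bases of CCCTAA units and another was 45 bases of alternating A and C, both simple repeats. The loci between Ddx18 and Dpp10 and between Gad2 and Apbb1ip shared the 48 bases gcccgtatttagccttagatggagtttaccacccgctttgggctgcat, and those between Cab39 and Itm2c and between Gm11084 and Ola1 shared the 27 bases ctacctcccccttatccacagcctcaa. In all, 39 intergenic unmasked peaks at 14 loci were similar over at least 40 bases to ribosomal RNA sequence in the reference used (a locus on chromosome 17 and part of the 28S gene). The chr9 locus was 91.1% identical to the 28S part over 45 bases. Such peaks were few but strong, with a median score of 100, 76.5, 72 and 48.5, against medians of 18, 16, 19 and 15 over all intergenic unmasked peaks. They made up 6, 5, 4 and 2 of the 50 highest-scoring peaks of the class. The 6 peaks of Cre DOX had the lowest median. The Cre DOX peak at the chr9 locus (score 506, 58.8% masked) was left out of them by the masking limit. The complete 28S gene and the rest of the ribosomal repeat were not used here, and the placing of reads from them was not tested. There were 0 peaks similar to mitochondrial DNA by the same search.

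Telomere-type repeats, at least 2 TTAGGG units in a row on either strand, were found in 19 intergenic unmasked peaks at 13 loci. Cre DOX had 12 such peaks, GFP mock 5, and GFP DOX and Cre mock 1 each. RTEL1 is known to act at telomeres. Peaks at the same locus differed in masking, and so in whether they were counted. Between Plk2, a polo-like kinase, and Actbl2 the Cre DOX peak scored 424 and was 33.1% masked, while the GFP mock peak there (424) was 77.7% masked, the GFP DOX peak (540) 75.7% and the Cre mock peak (580) 63.5%. Between Fam43a and Xxylt1 the scores were 301, 342, 394 and 402, and the GFP DOX and Cre mock peaks were 92.1% and 68.4% masked. Of the 12 peaks of Cre DOX, 7 overlapped a peak of some kind in all 4 lists and 1 was in Cre DOX alone, against 16.3% and 46.2% of all Cre DOX peaks and 10.1% and 64.4% of the class there. Cre DOX also had the widest peaks, whose part in its count was not tested. As a share of the class, the repeat was found in 0.44% of Cre DOX peaks (0.228% to 0.767%), against 0.0154% of tiles of eligible sequence of the same median width, and in 0.11% of GFP mock peaks (0.0357% to 0.257%), against 0.00894%. In GFP DOX and Cre mock, with 1 peak each, the interval included the share of the tiles.

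In GFP cells, 4545 of 87613 peaks were intergenic and unmasked in mock (5.19%, interval 5.04% to 5.34%) and 1698 of 60219 in DOX (2.82%, 2.69% to 2.96%). In Cre cells they were 3869 of 91097 in mock (4.25%, 4.12% to 4.38%) and 2727 of 105081 in DOX (2.60%, 2.50% to 2.69%). With DOX the number was 0.374 of the mock number in GFP cells and 0.705 in Cre cells, while the number of all peaks was 0.687 and 1.15 of it. Both ratios were below that of all peaks. Which of the ratios was lower turned with the choice of peaks, being 0.572 (GFP) against 0.44 (Cre) when the lists were of equal size and 0.468 against 0.369 in the top decile. Cre mock had 0.851 of the intergenic unmasked peaks of GFP mock and 1.04 of all its peaks. Most peaks over 10 kb from genes were masked, and only 14.6%, 8.32%, 14.3% and 6.54% of them were at most 50% masked. The eligible unmasked sequence came to 513 Mb, so that there were 8.86, 3.31, 7.54 and 5.32 peaks per Mb. They covered 1.39 and 0.564 Mb in GFP cells (mock, DOX) and 1.2 and 1.27 Mb in Cre cells.

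Intergenic unmasked peaks were narrow. Their median width was 219, 237, 225 and 350 bp, against 295, 351, 343 and 513 bp over all peaks. The narrowest peak of the lists was 106, 107, 132 and 213 bp wide, so width is not on the same scale in Cre DOX. Median scores were 18, 16, 19 and 15, within 1 of those of all peaks except in Cre DOX, where all peaks had 18. A score in the top decile of the list was reached by 13.7% (12.7% to 14.8%) of them in GFP mock and 17.2% (15.4% to 19.1%) in GFP DOX. In Cre cells it was reached by 15.9% (14.8% to 17.1%) in mock and 8.32% (7.31% to 9.43%) in DOX. A −log10 q-value of at least 5 was reached by 5.11%, 5.54%, 5.84% and 2.53%, against 2.96%, 1.87%, 3.03% and 1.45% of all peaks. By the first limit the class exceeded its list in 3 lists but not in Cre DOX, and by the second in all 4. The widest was in each list at the defensin cluster of chromosome 8, between AY761185 and Defa21, at 4197, 3903, 3562 and 8845 bp.

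Merging overlapping intergenic unmasked peaks gave 10303 loci, of which 8700 (84.4%) had such a peak in 1 list, 1015 in 2, 358 in 3 and 230 (2.23%) in all 4. Counting overlap by at least 1 bp with a peak of any kind, 67.1% (65.7% to 68.5%) of those in GFP mock were in no other list, against a background of 37.8% for all GFP mock peaks. The share was 48.5% (46.1% to 50.9%) in GFP DOX against 21.8% of all its peaks, 64.7% (63.1% to 66.2%) in Cre mock against 38.0%, and 64.4% (62.6% to 66.2%) in Cre DOX against 46.2%. The median score rose with the number of lists in each library. In GFP mock the median score went from 17 for peaks of 1 list to 20, 24 and 33 for peaks in 2, 3 and 4 lists, and the median width from 187 to 245, 312 and 532.5 bp. The highest score of a peak found in its own list alone was 166, in Cre mock, and the lowest of these maxima was 57, in GFP DOX.

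**Figure D2:**
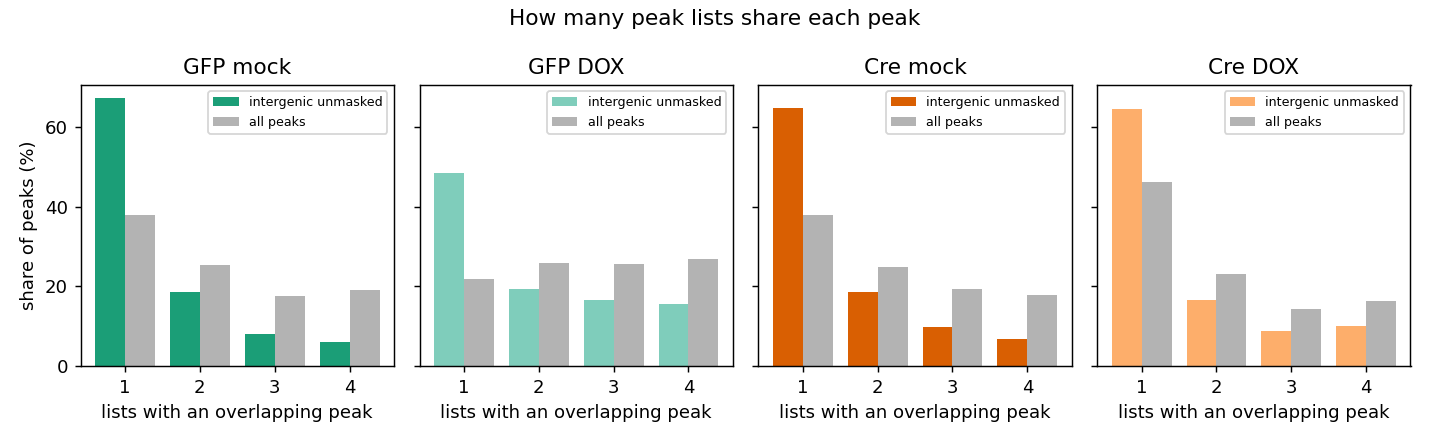
Share of intergenic unmasked peaks (coloured) and of all peaks (grey) of each list, by the number of lists (1 to 4) with an overlapping peak of any score. Among the coloured bars that for 1 list was the tallest in each panel, from 48.5% in GFP DOX to 67.1% in GFP mock, and it exceeded the grey bar in all 4 panels.

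The strongest peak that each list had alone is printed to show what list-only peaks look like. Capitals again mark predicted G4s.
GFP mock, between Bbs9 and Bmper, chr9:23022943-23023059: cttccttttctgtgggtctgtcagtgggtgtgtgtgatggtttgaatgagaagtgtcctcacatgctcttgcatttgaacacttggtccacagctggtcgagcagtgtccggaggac
GFP DOX, between Ezh2 and Pdia4, chr6:47749972-47750082: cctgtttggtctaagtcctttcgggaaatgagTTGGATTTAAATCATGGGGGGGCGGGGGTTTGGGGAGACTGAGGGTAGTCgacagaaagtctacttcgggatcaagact
Cre mock, between Gm16223 and Cpeb2, chr5:42720984-42721131: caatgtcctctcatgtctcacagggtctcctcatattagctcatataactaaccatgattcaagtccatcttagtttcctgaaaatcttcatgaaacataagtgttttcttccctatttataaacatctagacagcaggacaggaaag
Cre DOX, between BC048403 and Srgap1, chr10:121763229-121763441: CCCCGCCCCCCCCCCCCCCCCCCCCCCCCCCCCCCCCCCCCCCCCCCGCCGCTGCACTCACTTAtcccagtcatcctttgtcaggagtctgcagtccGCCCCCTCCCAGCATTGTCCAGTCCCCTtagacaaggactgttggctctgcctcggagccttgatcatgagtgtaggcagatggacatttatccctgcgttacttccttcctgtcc
The GFP mock peak (score 105) lay within the RefSeq lncRNA Gm36743, 134.7 kb from Bbs9, the nearest GENCODE gene. The GFP DOX peak (57) lay 31.5 kb from Rny3, a Y RNA gene, and occurred 18 times in the assembly in near-identical copies, itself included. The Cre mock peak (166) held no predicted G4, and the protein-coding genes on either side were 504.2 and 512.0 kb away. The Cre DOX peak (132) opened with a run of C bases, between BC048403 and Srgap1. Among the next in line were a peak of 76 in GFP mock (92.6 kb from Fam84a), peaks of 51 and 49 in GFP DOX (21.5 kb from Cysltr2 and 17.1 kb from Abt1), 150 and 97 in Cre mock (103.7 kb from Il12b and 37.5 kb from Tmem215), and 52 and 48 in Cre DOX (84.6 kb from Ezh2 and 236.5 kb from Tfap2b). These distances are to the nearest protein-coding gene, and other gene bodies could lie closer. The lincRNA Gm16497 lay 16.8 kb from the GFP mock peak of 76, which was within the RefSeq lncRNA Gm36007. The GFP DOX peak on the Abt1 side overlapped the valine tRNA gene n-TVaac2 of RefSeq. The Cre DOX peak of 52 overlapped the RefSeq protein-coding gene Gm40364 and also had 18 near-identical copies in the assembly, itself included. Each of these rests on a single library.

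Of the intergenic unmasked peaks of GFP mock, 86.2% (85.2% to 87.2%) overlapped no GFP DOX peak, or 3918 of 4545, against a background of 69.4% for all GFP mock peaks. Of those of Cre mock, 84.0% (82.8% to 85.1%) overlapped no Cre DOX peak, against 51.3%. The gap to the background was wider in Cre cells, where masked peaks over 10 kb from genes were absent from Cre DOX in 24.0% of cases and promoter peaks in 61.0%. In GFP cells these shares were 64.8% and 59.7%. In the opposite direction, 62.5% (60.2% to 64.9%) of the GFP DOX peaks of the class overlapped no GFP mock peak, against 57.0% of all, and 78.2% (76.6% to 79.7%) of the Cre DOX ones no Cre mock peak, against 63.6%. Absence therefore ran in both directions. Between the viruses, 73.1% (71.6% to 74.5%) of Cre mock peaks of the class were absent from GFP mock, against 64.8%, and 77.8% (76.5% to 79.0%) of GFP mock ones from Cre mock, against 61.5%. Under DOX, 75.5% (73.4% to 77.5%) of GFP DOX ones were absent from Cre DOX, against 37.5%, and 84.8% (83.4% to 86.1%) of Cre DOX ones from GFP DOX, against 70.3%. Most sites thus differed between the mock libraries too, and the sizes of the lists differ.

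From mock to DOX, absence fell with score but stayed above the background at equal score. Among GFP mock peaks scoring 10 to 14, 95.4% of the class and 81.0% of all peaks were absent from GFP DOX, and among those scoring 50 or more, 41.8% (35.4% to 48.4%) and 33.6%. For Cre mock against Cre DOX the shares went from 91.6% to 58.0% (51.2% to 64.5%) in the class and from 67.1% to 35.9% over all peaks. Between the mock lists, of Cre mock peaks scoring 50 or more 22.6% (17.3% to 28.6%) of the class and 19.9% of all were absent from GFP mock, so that the interval included the background. In the opposite direction these were 29.3% (23.5% to 35.6%) and 23.3%, and the interval lay just above it. Narrow peaks were more often absent. Among GFP mock peaks under 300 bp, 90.4% of the class and 82.2% of all were absent from GFP DOX, and 83.5% and 74.8% from Cre mock. Among Cre mock peaks under 300 bp, 90.6% and 67.3% were absent from Cre DOX, whereas 78.3% and 77.1% were absent from GFP mock, which is within the interval of the former (76.6% to 79.9%). With top-decile peaks alone in every list, the class came to 76.0% against 75.3% of all peaks for GFP mock in GFP DOX, to 65.0% against 70.1% for Cre mock in GFP mock and to 64.1% against 67.9% for GFP mock in Cre mock. The excess over the background thus shrank to within 1 percentage point or turned there, while for Cre mock in Cre DOX it was 86.3% against 76.2%.

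**Figure D3:**
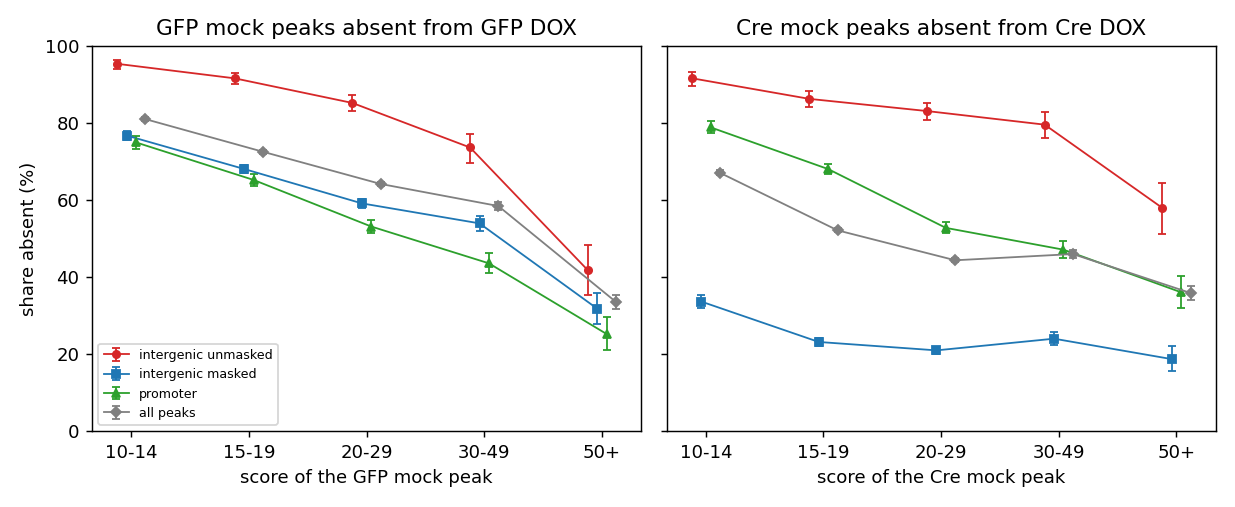
Share of mock peaks with no overlapping DOX peak (y axis, %, exact 95% intervals) by the score of the mock peak, for GFP cells on the left and Cre cells on the right. Intergenic unmasked peaks (red) lay above all peaks (grey) at each score, at 95.4% and 91.6% for scores of 10 to 14, and masked intergenic peaks (blue) lay lowest in Cre cells.

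The class was GC-rich for its surroundings. The eligible unmasked sequence was 40.7% GC, and tiles cut from the eligible regions at the median width of each list had a median of 39.2% to 39.6%, while the peaks had medians of 47.2%, 46.7%, 46.6% and 45.2%. The density rose with GC in each list. In GFP mock there were 0.335 peaks per 1000 tiles below 35% GC and 12.6 at 55% GC or more. In Cre DOX it went from 0.511 to 10.9. Few resembled CpG islands, with 29, 17, 28 and 24 peaks at least 200 bp wide, 50% GC and with an observed-to-expected CpG of 0.6, or 0.638%, 1.0%, 0.724% and 0.88%, against 2.83% to 4.57% of all peaks. Peaks shared by all 4 lists had less GC (43.4% in GFP mock) than those of 1 list (47.5%).

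In GFP cells, a predicted G4 was found in 26.8% (25.5% to 28.1%) of the class in mock and 22.7% (20.8% to 24.8%) in DOX. In Cre cells it was found in 25.3% (23.9% to 26.7%) in mock and 29.96% (28.2% to 31.7%) in DOX. Tiles had 7.72%, 8.42%, 7.97% and 12.7%. The share was lower in DOX than in mock in GFP cells and higher in Cre cells, and the Cre DOX peaks were also the widest. Peaks had more GC than tiles, so the shares were also compared within GC classes. At 45% to 50% GC, 25.3% (23.0% to 27.8%) of GFP mock peaks and 14.4% of tiles held a predicted G4, and at 50% to 55% GC 37.2% (34.3% to 40.2%) and 25.2%. Below 35% GC the interval included the share of the tiles in all 4 lists, with GFP mock at 1.245% against 1.28%. In GFP DOX it did so at 50% to 55% GC too, at 31.6% (26.8% to 36.8%) against 27.1%, and at 55% GC or more, at 43.6% (36.6% to 50.7%) against 45.1%. Among peaks of about the tile width the shares were lower, at 23.3%, 15.8%, 23.0% and 27.1% of 897, 336, 801 and 739 peaks. When these were also split by GC, GFP mock and Cre mock stayed above the tiles in each class, on few peaks in some. Below 35% GC the share was 2.13% of 47 peaks in GFP mock and 1.89% of 53 in Cre mock, against 1.28% and 1.36% of tiles. No intervals were made for these shares. GFP DOX, with 25 to 86 peaks in a class, was below the tiles in 4 of 6 classes, such as 50% to 55% GC (21.2% against 27.1%). Cre DOX was below them at 45% to 50% GC (23.2% against 24.1%). With a stricter score of at least 2, the class had a predicted G4 in 10.5%, 9.25%, 9.67% and 12.6% of its peaks, so the level depends on the definition. Over all peaks of the lists the share by the first definition ran from 20.4% to 24.9%, and among promoter peaks from 52.6% to 54.9%.

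**Figure D4:**
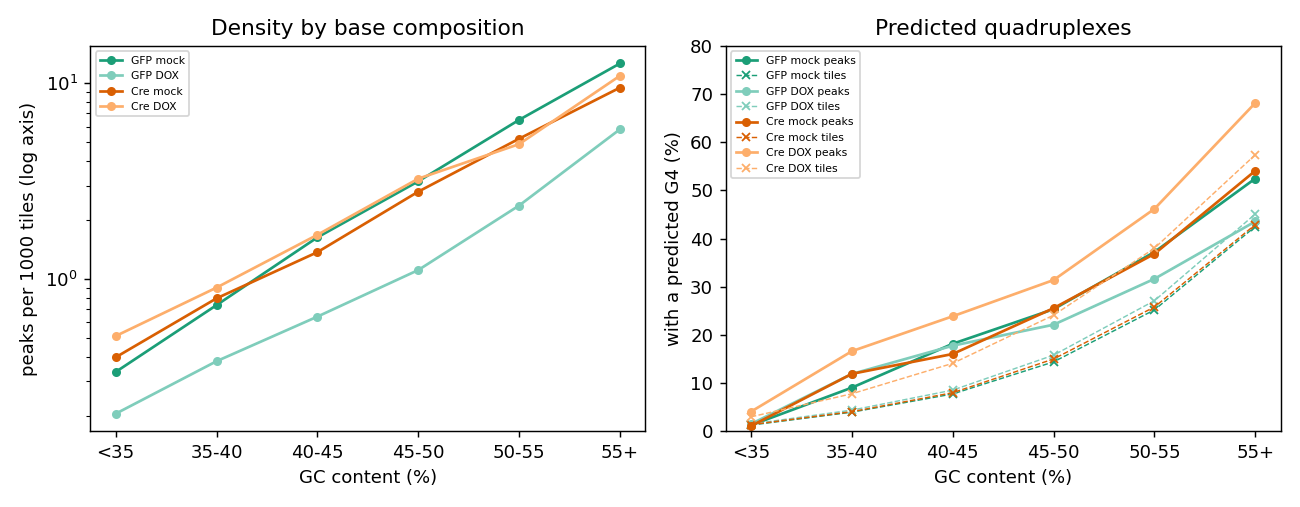
Intergenic unmasked peaks per 1000 tiles of eligible sequence by GC content (left, log axis) and the share with a predicted G4 in peaks (solid) and tiles (dashed) by GC content (right). Density in GFP mock rose from 0.335 to 12.6 per 1000 tiles, and at 45% to 50% GC 25.3% of GFP mock peaks against 14.4% of tiles had a predicted G4.

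Restriction digestion sets the fragments that S9.6 can pull down. The EcoRI, HindIII, BsrGI, SspI or XbaI fragment around the class had a median length of 1608, 1666, 1688 and 2003 bp, against 831 to 833 bp for tiles. Within 45% to 50% GC the medians were 1660 and 1059 bp in GFP mock, so peaks lay on longer fragments at equal GC. A cutting site lay inside 17.3% of GFP mock peaks and 37.2% of tiles. The part of fragment length in the calls was not tested.

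Density differed between chromosomes, in a like order in the 4 lists. Per Mb of eligible unmasked sequence, GFP mock had 17.1 peaks of the class on chromosome 15, 15.0 on 11, 13.8 on 5 and 12.7 on 19, but 3.45 on 7 and 3.68 on 14. Chromosome X had 4.87 and Y 0.569. In GFP DOX chromosome 15 had 7.45 and chromosome 7 1.09, in Cre mock 16.3 and 3.01, and in Cre DOX 9.0 and 2.02. Across the 19 autosomes the density in GFP mock and Cre mock correlated with a Pearson's r of 0.981 and a Spearman's rho of 0.968, and in GFP mock and Cre DOX with 0.831 and 0.835. These chromosomes come from 1 cell line and share its copy number, which was not measured here. The density also followed that of all peaks per Mb of chromosome (r = 0.879 in GFP mock).

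**Figure D5:**
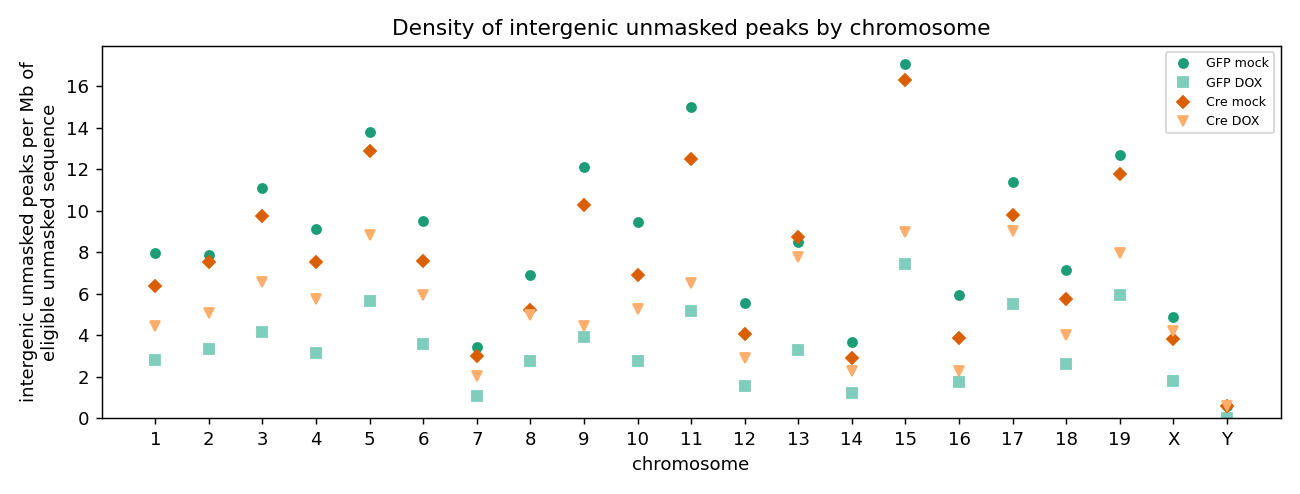
Intergenic unmasked peaks per Mb of eligible unmasked sequence (y axis) on each chromosome in the 4 lists. Chromosome 15 was highest in each list except Cre DOX, where chromosome 17 (9.01) was level with it (9.0), and chromosomes 7, 14 and Y were low in all 4.

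The class lay nearer to genes than the eligible sequence did. Its median distance to the nearest gene body was 26.6, 26.6, 26.1 and 27.6 kb, against 38.5 kb for tiles. In GFP mock there were 2.67 peaks per 1000 tiles at 10 to 20 kb, 1.87 at 20 to 50 kb, 1.37 at 50 to 100 kb and 0.825 at 100 to 200 kb. The fall did not go on beyond that, and at 200 to 500 kb the density was 0.894. In the other lists it went from 0.284 to 0.457, from 0.666 to 0.822 and from 0.746 to 1.11 between these last 2 bins. The bin at 200 to 500 kb held only 95, 45, 85 and 75 peaks. Peaks between 9130204L05Rik and Pglyrp3, described below, lay up to 426 kb from a gene body, and their part in this bin was not tested. GC content of the tiles in GFP mock fell throughout, from a median of 41.6% at 10 to 20 kb to 37.0% at 100 to 200 kb and 36.1% at 200 to 500 kb, where the density no longer fell with it. The nearest gene had its 3′ end towards the peak in 50.3% (48.9% to 51.8%) of GFP mock peaks, and in 51.5% (49.1% to 53.9%) of those in GFP DOX. The shares were 52.6% (51.0% to 54.2%) for Cre mock, 51.4% (49.5% to 53.3%) for Cre DOX and 51.5% for tiles. Each interval included the share of the tiles, so no preference for downstream flanks was detectable.

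Peaks of the class were clustered in some gene deserts. The interval with most loci lay between Tbc1d22a and Fam19a5 on chromosome 15 (1046 kb), with 63 loci, none of them in all 4 lists. It held 24 and 11 peaks in GFP cells (mock, DOX) and 25 and 10 in Cre cells, with a median score of 15 and no peak with a second near-identical copy in the assembly. The interval between 9130204L05Rik and Pglyrp3 on chromosome 3 (924 kb) had 52 loci, of which 19 were in all 4 lists. Its peaks were wide (median 682 bp) and 54.1% of them had a second copy, aligned over at least 80% of the peak at 90% identity. That between BC048507 and Mtrr on chromosome 13 was alike, with 7 of 51 loci in all 4 lists and a second copy for 69.3% of its peaks. Between Med13l, a Mediator subunit, and Tbx3, a T-box factor of limb development, there were 40 loci, none in all 4 lists, with 15, 5, 10 and 17 peaks. These intervals were picked by number of loci, which favours long ones, and some shorter ones were denser. The 166 kb between Nkx1-1 and Fam53a held 34 loci, or 205 per Mb, against 60.2 per Mb between Tbc1d22a and Fam19a5. Over all loci, 23.0% of the 230 in all 4 lists and 3.7% of those in 1 list held a peak with a second copy. Among single peaks the share was 5.39%, 6.24%, 5.04% and 8.65%, so soft-masking left some repeated sequence in.

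Some of the class was annotated in another gene set. RefSeq genes or pseudogenes overlapped 15.1% of the peaks in GFP mock and 15.0% in GFP DOX, and 13.98% in Cre mock and 12.4% in Cre DOX. Enhancers of the RefSeq functional annotation, most of them from the VISTA collection, overlapped 14, 6, 9 and 5 peaks. Neither overlap was counted for tiles or for all peaks, so no excess or lack can be read from these values. The lowest score in each list was 10, and many of the enhancer peaks named below were not far above it. The enhancer between the homeobox gene Msx1 and Stx18 was overlapped in both mock lists (33 for GFP, 32 for Cre) and in GFP DOX (14). An enhancer between Wnt10a, a secreted signalling protein, and Cdk5r2 was overlapped by a peak of each mock list (61 for GFP, 79 for Cre), and neither of these peaks overlapped a DOX peak. Between Fbxw4 and Fgf8, a growth factor of the limb bud, the CR4 enhancer was overlapped by peaks of 23 and 19 in GFP mock and 17 in Cre mock. In the DOX lists, the enhancer between Lrig2 and Slc16a1 was overlapped by a peak of 12 in GFP DOX and one of 16 in Cre DOX. An upstream Med13l enhancer had peaks of 18 and 11 in GFP DOX, and a second one a peak of 11 in Cre DOX. An enhancer between Tuba1a and Tuba1c (tubulin genes) had a GFP DOX peak of 15.

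Peaks just inside and just outside the limits had like values. In GFP mock the 227 peaks at 10 to 11 kb from a gene had a median score of 18 and a width of 248 bp, and the 259 at 9 to 10 kb 18 and 230 bp. The 386 with 45% to 50% of bases masked and the 315 with 50% to 55% had a median score of 18 each.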

How the data were processed

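DRIP-seq was done on 4 libraries and 4 inputs of mouse embryonic fibroblasts, and the 4 DRIP peak lists were analysed. The inputs were not analysed here. The authors digested DNA with restriction enzymes, pooled 3 S9.6 precipitations per condition, trimmed and aligned single-end reads to mm10 with BWA in the nf-core ChIP-seq pipeline and called broad peaks with MACS2 for each library separately. The command given in the methods asks for narrow peaks, whereas the deposited lists are broad peaks. The deposited columns are a score, a fold enrichment ratio, and the −log10 p-value and −log10 q-value of each peak. The control used for MACS2, if any, is not given in the sources used here. None is normalised between libraries, and the depth is unknown, so counts of peaks and overlaps can differ with depth. The narrowest peak was 106, 107, 132 and 213 bp wide in the 4 lists. Groups were taken from the labels, with 1 library in each.

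Gene distances came from GENCODE M21 with 55450 genes, and masking and sequence from the soft-masked GRCm38.p6 reference (positions counted from 1). An overlap of 1 bp counted as sharing. The background sequence was cut into tiles as wide as the median peak of each list. Predicted G4s were 25-base windows with a G4Hunter score of at least 1.5. Near-identical copies were found with minimap2 2.31-r1302 and ribosomal or mitochondrial similarity with blastn 2.17.0, and shares were given exact Clopper-Pearson 95% intervals with scipy 1.17.1. Code was tested on simulated intervals and sequences. Regions were named by rule, taking the 5 loci in all 4 lists with the best lowest rank, the 3 highest-scoring and 3 highest-scoring list-only peaks of each list, and the widest, with chromosome 18 left out. Some of the regions this rule names are not reported here. The regions near telomere-type repeats, in gene deserts and at enhancers were chosen after their values were seen. The members and lists were chosen with earlier results of these data known. Alternatives were peak thresholds, list size, overlap, distance, gene set, masking, chromosome ends, repeated sequence and G4 definition.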

Additional observations from a re-analysis of the deposited data

Results flagged for a closer look

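In 6 measures the change from mock to DOX ran in opposite directions in GFP and Cre cells, and none of these differences was tested, since each group had 1 library. The change in Cre cells minus that in GFP cells is given in percentage points. For the share of intergenic unmasked peaks with a predicted G4 it was 8.72, with 26.8% and 22.7% in GFP cells against 25.3% and 29.96% in Cre cells. The smallest peak was 213 bp in Cre DOX and 106 to 132 bp in the other lists, and its part was not tested. For the share in the top decile by score it was -11, and for the share with a −log10 q-value of at least 5 it was -3.74. For rDNA-like sequence it was -0.437, resting on 11, 10, 12 and 6 peaks, and the Cre DOX peak at the chr9 locus was left out by masking. For telomere-type repeats it was 0.465, resting on 5, 1, 1 and 12 peaks. For RefSeq enhancers it was -0.0946, resting on 14, 6, 9 and 5 peaks.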

How the results depend on the processing

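Values are in the order GFP mock and GFP DOX, Cre mock and Cre DOX for numbers of peaks. With a −log10 q-value of at least 2 in every list there were 1971, 610, 1843 and 753 intergenic unmasked peaks, and in the top decile of each list 624, 292, 615 and 227. With lists of equal size there were 2967 in GFP mock, 2502 in Cre mock and 1102 in Cre DOX. Over 50 kb from genes there were 1174, 413, 970 and 724, over 10 kb from protein-coding genes alone 7591, 3021, 6624 and 4769, and with at most 25% masked 2802, 1124, 2531 and 1514.

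Shares absent are given for GFP mock in GFP DOX, Cre mock in Cre DOX, Cre mock in GFP mock and GFP mock in Cre mock. They were 84.2%, 87.1%, 71.1% and 73.1% under the same q-value limit (all peaks 77.6%, 60.6%, 70.1% and 65.0%), 76.0%, 86.3%, 65.0% and 64.1% in the top decile (all peaks 75.3%, 76.2%, 70.1% and 67.9%), and 81.5%, 86.4%, 70.6% and 75.7% with lists of equal size (all peaks 64.7%, 56.4%, 65.4% and 63.7%). Under the q-value limit the third was within about 1 percentage point of all peaks. Requiring overlap of 50% of each peak gave 92.5%, 92.3%, 85.8% and 88.0% (all peaks 88.7%, 86.8%, 86.0% and 85.5%), so the excess of the third was gone, and allowing 1 kb between peaks gave 81.3%, 76.5%, 64.6% and 70.6% (all peaks 57.1%, 39.8%, 49.8% and 47.4%). Over 50 kb from genes the first was 84.8% and the second 82.4%, and with protein-coding genes alone the first was 84.7%, the second 82.1% and the last 76.1%. With at most 25% masked the second was 85.8% and the third 75.4%, and without second copies the second was 85.8%. The cause of these shifts was not tested beyond what each setting removes. Masking judged over the central 100 bases, an alternative chosen after seeing the data, gave 86.0%, 83.0%, 72.3% and 77.5%.

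The share with a predicted G4 was 10.5%, 9.25%, 9.67% and 12.6% with a score of at least 2, and 9.7%, 8.83%, 8.48% and 11% by a regular expression, against 26.8%, 22.7%, 25.3% and 29.96%. Tiles were not scored under these definitions. Under both, DOX was lower than mock in GFP cells and higher in Cre cells.

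The depth of the libraries is unknown, so a peak missing from a list was not detectable there rather than shown to be absent. Pairing 2 groups by replicate number would give 1 pair, with 1 library in each, and allows no test. Pairing mock with DOX over the 2 viruses, which leaves 1 degree of freedom, was not run.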
